A study of Mus musculus with 12 samples.

Results

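The anti-PD1 effect described here was taken over both treatment backgrounds of a factorial experiment on mouse tumours. Its members were all 12 libraries of the series: 6 from tumours treated with anti-PD1 and 6 from tumours without it. The tumours grew from Sq-1979 cells, a line of mouse head and neck carcinoma of the squamous type, injected with Matrigel subcutaneously into C3H/HeN males aged 6 weeks. All 4 groups shared this cell line, strain, sex and age. The labels give no genetic change in mice or cells, so the model is 1 cell line in 1 inbred strain. The 3 anti-PD1 tumours received an antibody against the receptor PD1 with no regorafenib, and the 3 vehicle tumours received neither drug. The 3 combination tumours received anti-PD1 with regorafenib, and the 3 regorafenib tumours received regorafenib without the antibody. Treatment began on day 20 after injection. The labels give 5 mg/kg per day for regorafenib, a kinase inhibitor that acts on VEGF receptors and other kinases, but no dose of their own for the combination and none for the antibody. They describe gavage by mouth each day for every treatment, the antibody included. The antibody effect was the mean of 2 log2 differences, anti-PD1 against vehicle and combination against regorafenib, so that each background counted equally. Whether a group's 3 samples were taken from different animals is not stated, so p-values measure the spread between these samples, which may be technical.

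PD1, encoded by Pdcd1, is an inhibitory receptor on activated T cells. When its ligands PD-L1 (Cd274) and PD-L2 (Pdcd1lg2) on tumour or myeloid cells bind it, T cell receptor signalling is dampened, and an antibody against PD1 blocks this contact. T cells released in this way can secrete interferon gamma, which induces antigen presentation genes, guanylate-binding proteins and PD-L1 itself in neighbouring cells.

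Each library held 22591835 to 28209036 counts, and 16974 of 55487 gene identifiers had enough of them to be tested. Levels are given in CPM, counts scaled to the size of the library with TMM factors, and they are not adjusted for gene length. The squamous markers Krt5 (5235 to 7885 CPM), Krt14 (2285 to 5099 CPM) and Trp63 (334 to 540 CPM) were present in all 12 libraries. Library totals averaged 26063600 ± 2310730 counts with anti-PD1 and 25114800 ± 2228920 without it (SD, n = 6 each). An exact permutation test, two-sided and within backgrounds, gave p = 0.46, where 0.005 was the smallest p possible. Genes of the Y chromosome did not differ detectably between the arms (exact permutation p = 0.575).

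No gene passed the threshold for the average anti-PD1 effect. Of 16974 genes, 0 had an adjusted p under 0.05 by edgeR's quasi-likelihood test with Benjamini-Hochberg adjustment (0% called), and the smallest adjusted p was 0.558. At an unadjusted p under 0.05 there were 1485 genes (8.75%), of which 934 were higher (5.5%) and 551 lower (3.25%) with anti-PD1. DESeq2 called 10 genes higher and 1 lower in the same 12 libraries. In the same edgeR fit, the average regorafenib effect passed for 1610 genes (9.49%), and the median standard error of a gene's log2 fold change was 0.132 for the antibody and 0.133 for the kinase inhibitor. The antibody effect exceeded 1 on the log2 scale, in either direction, for 170 genes (1%), against 841 (4.95%) for regorafenib.

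**Figure D1:**
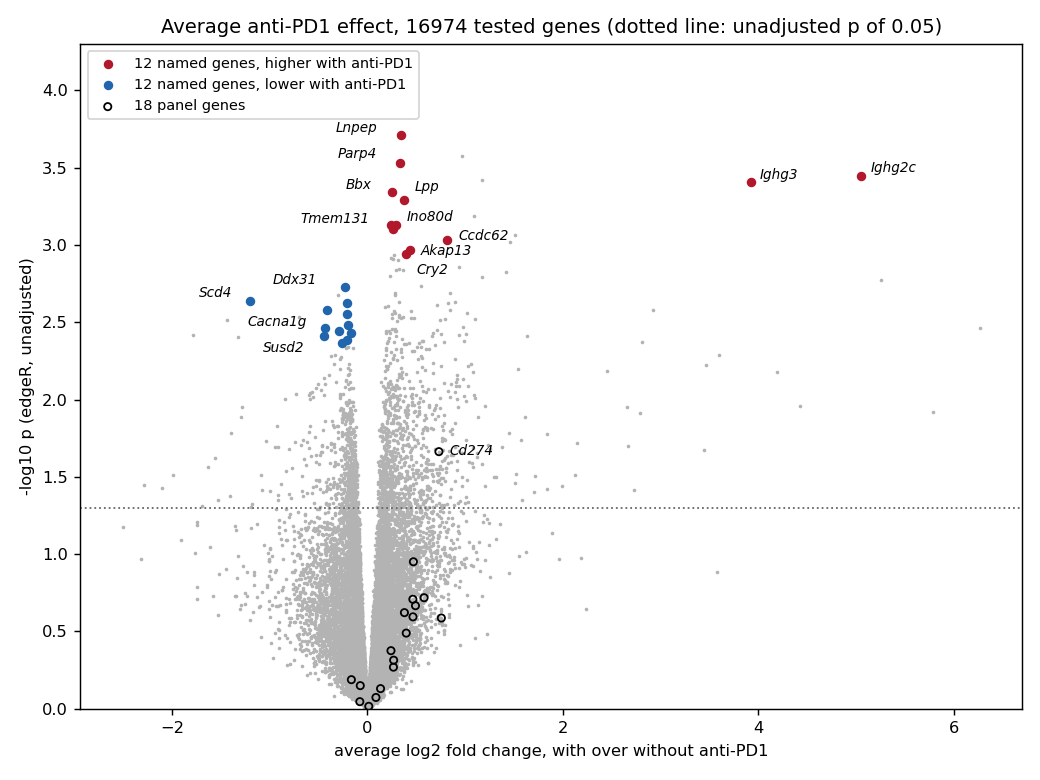
Average log2 fold change of anti-PD1 (x axis, with over without the antibody) against −log10 of the unadjusted edgeR p (y axis) for 16974 genes. Named genes are coloured and the 18 panel genes are open circles. Ighg2c (5.05) and Ighg3 (3.92) lie far to the right, and the other named genes lie between -1.21 (Scd4) and 0.82 (Ccdc62).

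Antibody genes had the largest values of the named genes. Plasma cells secrete antibodies made of heavy chains, such as the gamma chains of IgG, and of light chains, most often kappa in the mouse. The 4 gamma constant genes lie side by side on chromosome 12, from Ighg2c at chr12:113285325-113288932 to Ighg3 at chr12:113356224-113361232 (GRCm38). They are near-identical in part, so reads may have been split among them in an unknown way. The C57BL/6 reference carries Ighg2c where several other strains carry an IgG2a gene, so the symbol names the reference gene and not the allele of C3H/HeN mice.

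Ighg2c had 110, 2 and 745 counts in anti-PD1 tumours against 13, 4 and 36 in vehicle tumours. It had 458, 609 and 635 counts in combination tumours against 8, 10 and 3 in regorafenib tumours. Of the 6 libraries with anti-PD1, 5 lay above all 6 libraries without it, and anti-PD1 2 lay below all 6. The average log2 fold change was 5.05 ± 0.98 (SE, 95% interval 2.89 to 7.22), with an unadjusted p of 0.000356 and an adjusted p of 0.558 by edgeR.

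The other IgG genes varied more between backgrounds. Ighg2b, another gamma heavy chain, had 70, 29 and 137 counts in anti-PD1 tumours against 59, 61 and 43 in vehicle tumours, and 3024, 158 and 373 in combination tumours against 40, 15 and 37 in regorafenib tumours. Its average log2 fold change was 2.92 ± 0.75 (SE, adjusted p 0.558 by edgeR). Groups overlapped without regorafenib and did not overlap with it, and the value was 1.71 without combination 1. Ighg3 had 2, 0 and 7 counts in anti-PD1 tumours against 1, 0 and 1 in vehicle tumours, and 50, 223 and 84 in combination tumours against 2, 2 and 1 in regorafenib tumours. The Ighg3 counts outside the combination tumours were so low that a fitted fold change depends on the prior count. Ighg1, chosen after its values were seen, had 164, 3 and 107 counts in anti-PD1 tumours against 15, 59 and 5 in vehicle tumours. In combination tumours it had 4151, 108 and 62 counts, against 15, 7 and 28 in regorafenib tumours. Combination 1 alone therefore held most of the Ighg1 counts, and the average log2 fold change of 4.19 became 2.01 without that library.

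Summed over the 4 gamma genes, anti-PD1 tumours had 346, 34 and 996 counts and vehicle tumours 88, 124 and 85. The sums were 7683, 1098 and 1154 in combination tumours and 65, 34 and 69 in regorafenib tumours. All 3 combination libraries and 2 of 3 anti-PD1 libraries thus exceeded every library without the antibody, and anti-PD1 2 was again the exception.

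The light chain and joining chain genes were highest in much the same libraries. Igkc, the kappa constant gene (chr6:70726435-70726966), had 299, 28 and 1147 counts in anti-PD1 tumours against 130, 66 and 69 in vehicle tumours, and 3835, 1061 and 1740 in combination tumours against 483, 129 and 77 in regorafenib tumours. Its average log2 fold change was 2.81 ± 0.77 (SE, adjusted p 0.558 by edgeR). Jchain, which links antibody units into polymers and was chosen after its values were seen, had 44, 15 and 190 counts in anti-PD1 tumours and 39, 11 and 30 in vehicle tumours. It had 250, 72 and 323 counts in combination tumours and 142, 30 and 23 in regorafenib tumours, and its groups overlapped in both backgrounds. The average log2 fold change of Jchain was 1.59 ± 0.70 (SE), or 0.91 without anti-PD1 3. Variable segments, which are joined to the constant genes in each B cell, were counted as classes chosen after values were seen. Of 160 kappa segments, 81 had counts and 11 were tested. All 11 had a positive average log2 fold change, against 52.7% of all tested genes. Of the 11, 8 were higher with an unadjusted p under 0.05, against 5.5% of all tested genes. Of 185 heavy chain segments, 85 had counts and 6 were tested, of which 6 were positive and 5 had an unadjusted p under 0.05. A segment could pass the count filter through the libraries where it was high alone, so these shares are no support for an effect. Of 10 tested T cell receptor segments, 8 were positive and 0 had an unadjusted p under 0.05.

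Among genes of the B cell surface, Cd79b, a subunit of the B cell receptor, had an average log2 fold change of 0.38 ± 0.30 (SE), Cd22, an inhibitory receptor, 0.10 ± 0.46, and Tnfrsf13c, a survival receptor, 0.02 ± 0.35. These 3 genes were chosen after their values were seen. Likewise chosen were Sdc1 (-0.17), Xbp1 (0.04), Derl3 (0.34) and Pou2af1 (0.24), which plasma cells also express. Their unadjusted edgeR p-values were 0.0914 to 0.624, and which cells their RNA came from was not tested. Mzb1 and Tnfrsf17, of the same list, had too few counts to be tested. Ms4a1 and Cd79a, both B cell genes, had at most 0.144 and 0.839 CPM in any library and were too low to test. Of the 26 genes in the B cell and plasma cell list, 19 were tested and 16 were positive. Of the 19, 6 had an unadjusted p under 0.05, all higher, against 5.5% of all tested genes. These 6 were Ighg2c, Ighg3, Ighg2b, Igkc, Ighg1 and Jchain, described above, so the share is no further support for an effect. Ighg3 could also pass the count filter through the combination tumours alone. The median of the list was 0.34, or 0.01 without anti-PD1 3. The heavy chain genes Ighm of IgM (log2 fold change 0.47) and Igha of IgA (0.55) had unadjusted p-values of 0.113 and 0.407 in the average effect. In bulk tumours, more cells of a type and more RNA per cell cannot be told apart.

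**Figure D2:**
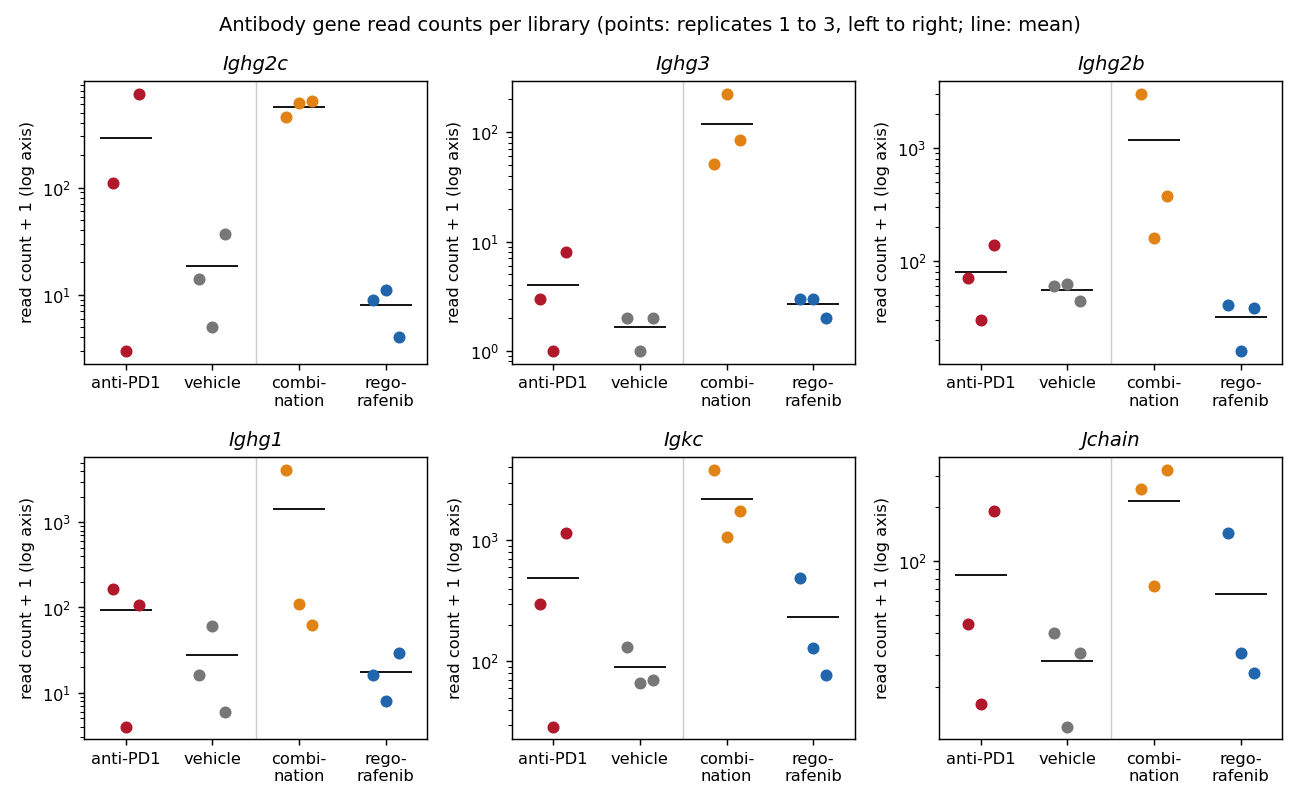
Read counts plus 1 (log axis) of 6 antibody genes in each of the 12 libraries, with replicates 1 to 3 from left to right and the group mean as a line. Ighg2c had 458 to 635 counts in combination tumours and 3 to 10 in regorafenib tumours, and anti-PD1 2, with 2 counts, lay far below the other anti-PD1 libraries.

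Most of the genes closest to the threshold, apart from the antibody genes, had log2 fold changes under 0.5 in size. By rule, the 12 higher and 12 lower genes of smallest p with a mean of at least 1 CPM were taken, none of which passed. Lnpep, which encodes a membrane aminopeptidase (chr17:17521410-17625050), had 162, 132 and 151 CPM in anti-PD1 tumours against 116, 115 and 108 CPM in vehicle tumours. It had 166, 157 and 144 CPM in combination tumours against 120, 128 and 132 CPM in regorafenib tumours. The groups did not overlap in either background. Without regorafenib such a separation was found for 1346 genes higher (7.93%) and 1541 lower (9.08%) in anti-PD1 tumours, and with regorafenib for 838 higher (4.94%) and 480 lower (2.83%) in combination tumours. The log2 fold change of Lnpep was 0.34 ± 0.06 (SE), a 1.27-fold difference, with an unadjusted p of 0.000195 and an adjusted p of 0.558 by edgeR. DESeq2 gave an adjusted p of 0.00603.

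Parp4, which encodes an ADP-ribose transferase of vault particles, had 71.4, 55.9 and 66.0 CPM in anti-PD1 tumours against 51.1, 46.7 and 49.7 CPM in vehicle tumours, and 74.8, 76.9 and 73.0 CPM in combination tumours against 59.2, 62.7 and 64.9 CPM in regorafenib tumours. Its log2 fold change was 0.33 ± 0.06 (SE), and its groups did not overlap within either background. Tmem131, which encodes a membrane protein involved in collagen secretion, ranged from 169 to 181 CPM with anti-PD1 (median 178) and from 132 to 166 CPM without it (median 148), a log2 fold change of 0.24 ± 0.05. Lpp, which encodes a protein of cell adhesion sites, ranged from 122 to 161 CPM with anti-PD1 (median 131) and from 91.4 to 113 CPM without it (median 107), a log2 fold change of 0.37 ± 0.08. For Tmem131 and Lpp all 6 libraries with anti-PD1 lay above all 6 without it.

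The other higher genes had log2 fold changes of 0.25 to 0.82. Ccdc62 (log2 fold change 0.82, at 2.66 ± 0.76 CPM with and 1.47 ± 0.29 CPM without anti-PD1, SD, n = 6 each) also had no overlap between the 6 and 6 libraries. Bbx, an HMG-box gene (0.25), Ino80d, a subunit of a chromatin remodelling complex (0.29), Akap13, an anchor of protein kinase A (0.43), and Cry2, a repressor of the circadian clock (0.39), overlapped by some libraries. The genes that DESeq2 called higher included Lnpep, Parp4, Bbx, Lpp, Ino80d, Tmem131, Akap13, Cbl and Prpf8. Cbl, a ubiquitin ligase gene, and Prpf8, of the spliceosome, had log2 fold changes of 0.24 and 0.19 by edgeR.

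The lower genes of smallest p were led by Ddx31, a helicase gene of ribosome assembly. It ranged from 21.0 to 24.2 CPM with anti-PD1 and from 25.6 to 29.3 CPM without it, a log2 fold change of -0.23 ± 0.06 with no overlap. Rbm45, an RNA-binding protein gene (-0.20), and Mphosph10, which acts in the processing of ribosomal RNA (-0.26), had no overlap either. Wdr74 (-0.20), another ribosome assembly gene, overlapped by 1 library with anti-PD1. Rflnb, which encodes a regulator of filamins, had a log2 fold change of -0.21 ± 0.05 and was the 1 gene that DESeq2 called lower (adjusted p 0.0499).

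Scd4, a stearoyl-CoA desaturase gene of fatty acid synthesis, had the largest difference of the 12 lower genes. Anti-PD1 tumours had 5.86, 10.4 and 5.42 CPM against 22.9, 15.8 and 27.0 CPM in vehicle tumours. Combination tumours had 2.21, 1.81 and 4.71 CPM against 3.97, 7.78 and 3.65 CPM in regorafenib tumours. The groups were apart without regorafenib and overlapped with it, and the average log2 fold change was -1.21 ± 0.30 (SE, adjusted p 0.558 by edgeR). The remaining lower genes were Cacna1g, a calcium channel gene (-0.42), Shox2, a homeobox gene (-0.44), Susd2 (-0.44), Snx7, a sorting nexin gene (-0.29), Sec23a, of vesicle coats (-0.21), and Mlx, a partner of glucose-sensing transcription factors (-0.17).

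Over all tested genes, 19 had all 6 libraries with anti-PD1 above all 6 without it (0.112%), and 17 had all 6 below (0.1%). Chosen from these after their values were seen, Wrn, a helicase gene, averaged 74.0 ± 3.19 CPM with anti-PD1 and 65.5 ± 2.33 CPM without it (SD, n = 6 each). Likewise Prmt5 and Carm1, both arginine methyltransferase genes, averaged 46.3 ± 2.07 and 119 ± 4.60 CPM with anti-PD1 and 50.5 ± 2.98 and 132 ± 4.97 CPM without it. The differences of Wrn, Prmt5 and Carm1 were 0.17, -0.12 and -0.15 on the log2 scale. Random labels on 12 libraries would also separate some genes in this way. How many was not computed, so these counts and the separation of single genes are no support for an effect.

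The named higher genes were long. Their median exonic length was 10396.5 bases, against 3523 bases for the 12 lower genes and 4234 bases for all genes of at least 1 CPM. Over the longest 10% of these genes the median log2 fold change was 0.09, and over the shortest 10% it was -0.02. In single libraries, the mean log2 difference between long and short genes was 0.0954, 0.109 and 0.0255 in anti-PD1 tumours against 0.0218, -0.0163 and -0.0346 in vehicle tumours. It was 0.149, 0.118 and 0.00363 in combination tumours against -0.0255, 0.0331 and 0.0215 in regorafenib tumours. The third library of each antibody group was within the range of the libraries without anti-PD1. This pattern was noticed after the values were seen, and its part in the result was not tested.

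The antibody's own pathway was read in a panel of 18 genes. Cd274, which encodes PD-L1 (chr19:29367455-29388095), had 226, 77.5 and 162 CPM in anti-PD1 tumours against 90.3, 71.2 and 45.5 CPM in vehicle tumours. It had 137, 155 and 178 CPM in combination tumours against 116, 181 and 86.9 CPM in regorafenib tumours. The groups overlapped in both backgrounds. The average log2 fold change was 0.73 ± 0.27 (SE, 95% interval 0.13 to 1.33), with an unadjusted p of 0.0217 and an adjusted p of 0.558 by edgeR, and Cd274 was the only panel gene of the 18 with an unadjusted p under 0.05.

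Pdcd1, the gene of the targeted receptor, had 13.6, 6.26 and 16.7 CPM in anti-PD1 tumours against 6.88, 5.90 and 4.71 CPM in vehicle tumours. It had 5.88, 8.0 and 16.9 CPM in combination tumours against 14.9, 14.4 and 8.86 CPM in regorafenib tumours. An antibody blocks the protein and does not remove the transcript, so these levels are no check of the labels. The average log2 fold change was 0.38 ± 0.30 (95% interval -0.29 to 1.05), with 1.07 without regorafenib and -0.31 with it.

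T cell and effector genes of the panel followed the same division. Gzmb, which encodes granzyme B of killer cells, had 21.8, 12.5 and 42.9 CPM in anti-PD1 tumours against 14.9, 12.1 and 6.67 CPM in vehicle tumours. It had 16.8, 13.7 and 35.4 CPM in combination tumours against 64.2, 57.0 and 13.4 CPM in regorafenib tumours. The log2 fold changes were 1.20 and -1.03 in the 2 backgrounds and 0.09 on average. Ifng, which encodes interferon gamma, had 1.01 without regorafenib, -0.03 with it and an average of 0.49 ± 0.37. Prf1, which encodes perforin, had 0.99, -0.05 and 0.47 in the same order, and Cd8a, which marks killer T cells, had 0.66, -0.18 and 0.24. Of the exhaustion and checkpoint receptors, the averages were 0.58 for Ctla4, 0.46 for Tigit, 0.47 for Tox, 0.27 for Lag3 and 0.01 for Havcr2. Foxp3, of regulatory T cells, had an average of 0.40, Cd4 had 0.13, and Pdcd1lg2 had 0.76 ± 0.63. The chemokine genes Cxcl9 and Cxcl10 had 0.27 and -0.16, the arginase gene Arg1 of myeloid cells had -0.08, and the proliferation marker Mki67 had -0.07. Single libraries moved several of these averages. Without combination 3 the log2 fold change was 0.0967 for Pdcd1, 0.25 for Pdcd1lg2, 0.31 for Prf1, 0.19 for Tigit, 0.15 for Tox, -0.00245 for Cd8a and -0.0972 for Lag3. Without anti-PD1 3 it was 0.23 for Ifng, 0.30 for Ctla4, 0.0945 for Foxp3 and 0.0142 for Cxcl9. Adjusted p-values for the 16 panel genes other than Cd274 and Pdcd1 were at least 0.591, and the intervals in the plot of panel genes span 0 for all 16 averages.

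**Figure D3:**
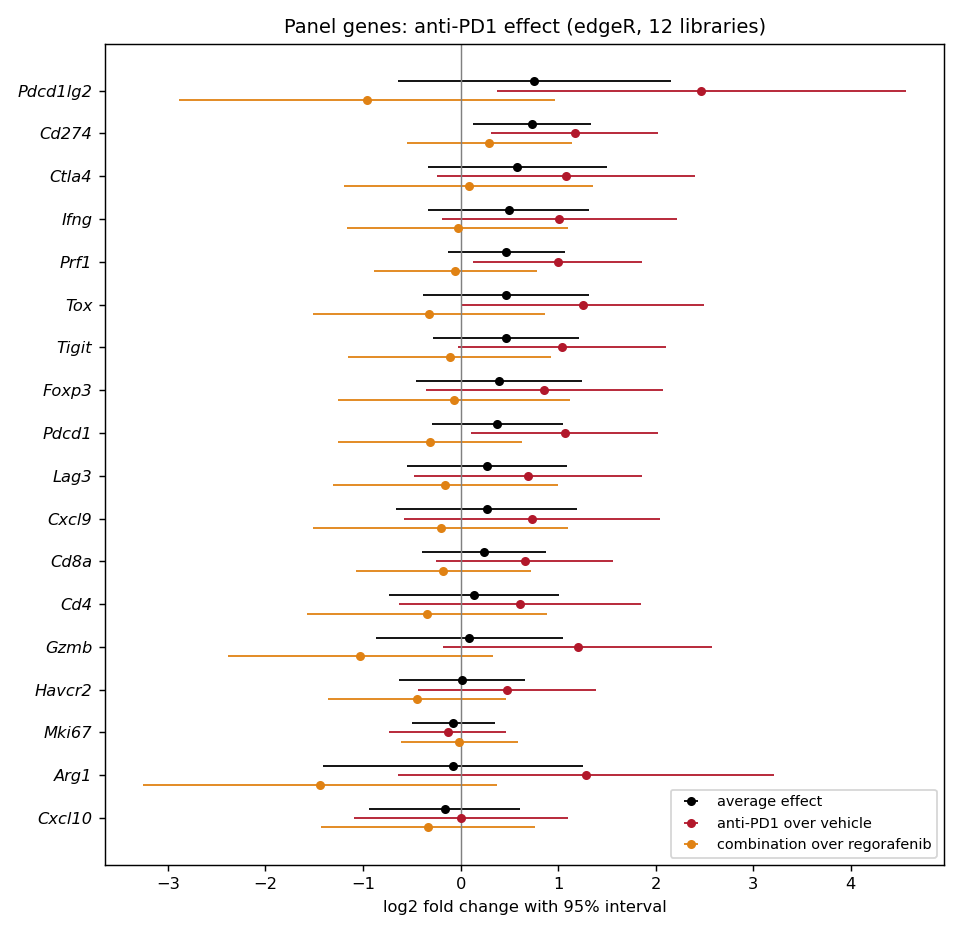
Log2 fold changes with 95% intervals (x axis) for the 18 panel genes (y axis): the average anti-PD1 effect in black, anti-PD1 over vehicle in red and combination over regorafenib in orange. Cd274 (0.73, 0.13 to 1.33) has the only average interval of the 18 that excludes 0, and red points lie right of orange ones for every panel gene but Mki67.

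Targets of interferon gamma mostly had positive averages. All 29 listed genes were tested, 25 had a positive average log2 fold change (86.2%, against 52.7% of all tested genes), and the median was 0.35, against 0.01 over all tested genes. Of the 29, 0 passed and 5 had an unadjusted p under 0.05, all higher (background 5.5%): Gbp2b, Gbp4, Nlrc5, Gbp2 and, named after its values were seen, Gbp6 (log2 fold change 0.58). With single libraries left out, between 23 and 28 of the 29 were positive. The summed level of the list was 5063 to 10158 CPM with anti-PD1 and 3755 to 10249 CPM without it, so the arms overlapped widely. In anti-PD1 against vehicle 28 of 29 were positive with a median of 0.64 (background 51.7% positive). In combination against regorafenib 17 of 29 were positive with a median of 0.11 (background 49.6%).

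Gbp2b, an interferon-induced guanylate-binding protein gene (chr3:142594847-142619179), had 1219.8, 435 and 851 CPM in anti-PD1 tumours against 474, 376 and 275 CPM in vehicle tumours. It had 765, 832 and 1014.8 CPM in combination tumours against 485, 986 and 544 CPM in regorafenib tumours. Groups overlapped in both backgrounds, since anti-PD1 2 lay below the highest vehicle library and regorafenib 2 above 2 combination libraries. The average log2 fold change was 0.76 ± 0.26 (SE, unadjusted p 0.0148, adjusted p 0.558 by edgeR). The related genes Gbp4 and Gbp2 had average log2 fold changes of 0.82 ± 0.32 and 0.54 ± 0.23. Nlrc5, the activator of MHC class I genes, ranged from 304 to 702 CPM with anti-PD1 (median 496) and from 237 to 619 CPM without it (median 383), with a log2 fold change of 0.35 ± 0.14. The guanylate-binding protein genes are paralogs, so reads may have been split among them.

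The promoters of these genes hold known binding motifs of interferon-activated factors. The ISRE, searched as 2 copies of GAAA with any 2 bases between them on either strand, from 250 bases before to 50 after the RefSeq start, was present for 12 of the 17 interferon gamma genes that had a RefSeq promoter sequence (70.6%), against 3.99% of 27025 genes. The GAS element, searched as TTC and GAA with any 3 bases between them, was present for 10 of 17 (58.8%), against 9.55%. Of the type I interferon genes, whose averages were mostly negative, 11 of 20 held an ISRE (55.0%) and 4 of 20 a GAS element (20.0%). Both lists were made of known interferon targets, so these shares are no result about anti-PD1. Shown here are the 160 bases before the start of Gbp2b and Gbp2, whose values are given above, and of Parp4, a gene of small p outside the list with 2 overlapping matches (chosen after seeing the sequences). Sequences are from RefSeq, build GRCm38.p6, plus strand, with ISRE matches in capitals on either strand, at chr3:142594687-142594846, chr3:142620503-142620662 and chr14:56575459-56575618.
Gbp2b: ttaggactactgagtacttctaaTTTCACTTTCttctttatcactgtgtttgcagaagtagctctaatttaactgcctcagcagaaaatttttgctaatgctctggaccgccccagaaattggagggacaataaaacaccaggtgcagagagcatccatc
Gbp2: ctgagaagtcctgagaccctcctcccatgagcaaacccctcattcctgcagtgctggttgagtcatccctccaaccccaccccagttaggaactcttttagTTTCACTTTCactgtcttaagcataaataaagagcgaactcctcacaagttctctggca
Parp4: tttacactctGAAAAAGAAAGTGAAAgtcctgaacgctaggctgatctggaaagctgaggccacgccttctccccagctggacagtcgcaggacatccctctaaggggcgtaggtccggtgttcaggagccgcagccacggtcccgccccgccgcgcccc
The matches begin 137 bases before the start in Gbp2b and 59 bases before it in Gbp2, and a match is a description of the letters only.

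Lists of T cells and killer cells had positive averages that came from 1 background. All 22 T cell genes were tested, and 21 had a positive average log2 fold change, with a median of 0.21. Without regorafenib 21 of 22 were positive with a median of 0.67, and with regorafenib 0 of 22 were positive with a median of -0.29. The T cell receptor subunit gene Cd3d had 7.38, 4.65 and 11.96 CPM in anti-PD1 tumours against 4.61, 3.02 and 3.09 CPM in vehicle tumours. It had 4.55, 5.71 and 9.42 CPM in combination tumours against 10.2, 10.3 and 4.21 CPM in regorafenib tumours. Anti-PD1 tumours lay above vehicle tumours in all libraries, and the regorafenib tumours split into 2 high and 1 low. The average of Cd3d was 0.42 ± 0.31 (SE, adjusted p 0.643 by edgeR), or 0.21 without anti-PD1 3, and the difference between its effects in the 2 backgrounds was -1.49 on the log2 scale with an unadjusted p of 0.034 and an adjusted p of 1.00 by edgeR. The exception in the list was Bcl11b, a T cell transcription factor that squamous epithelium also expresses, with -0.27 ± 0.12.

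Of 18 tested cytotoxic genes 15 were positive with a median of 0.16, and of 13 tested NK cell genes 10 were positive with a median of 0.12, among them Il2rb, an interleukin receptor chain (0.36), and Txk, a kinase (0.38). The NK list had 13 of 13 positive without regorafenib and 0 of 13 with it. These signs depended on single libraries. Without combination 3, 8 of 22 T cell genes were positive, and without anti-PD1 3, 6 of 18 cytotoxic and 4 of 13 NK cell genes were. In that setting Il2rb had 0.16 and Txk 0.17. The summed level of the T cell list was 189 to 452 CPM with anti-PD1 and 212 to 446 CPM without it, so the ranges of the arms nearly coincided. Checkpoint genes other than the panel included Cd276, which encodes B7-H3 (-0.26 ± 0.11, unadjusted p 0.0434), and the poliovirus receptor genes Nectin2 (-0.23) and Pvr (0.19, or 0.13 without combination 1). Ikzf2, of the regulatory T cell list, had 43.7, 36.0 and 36.7 CPM in anti-PD1 tumours against 34.9, 28.7 and 31.2 CPM in vehicle tumours. It had 49.3, 56.5 and 46.4 CPM in combination tumours against 39.4, 38.8 and 41.8 CPM in regorafenib tumours. The groups were apart in both backgrounds, and its log2 fold change was 0.32 ± 0.08 (SE, unadjusted p 0.00144, adjusted p 0.558 by edgeR). For scale, Cd3e, a T cell receptor subunit gene, ranged from 4.86 to 17.6 CPM and Cd8a from 12.1 to 38.1 CPM. Ptprc, a gene of white blood cells, ranged from 49.8 to 177 CPM. CPM are not adjusted for gene length, so levels of different genes do not give the cell source. Which cells Ikzf2 came from was not tested.

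**Figure D4:**
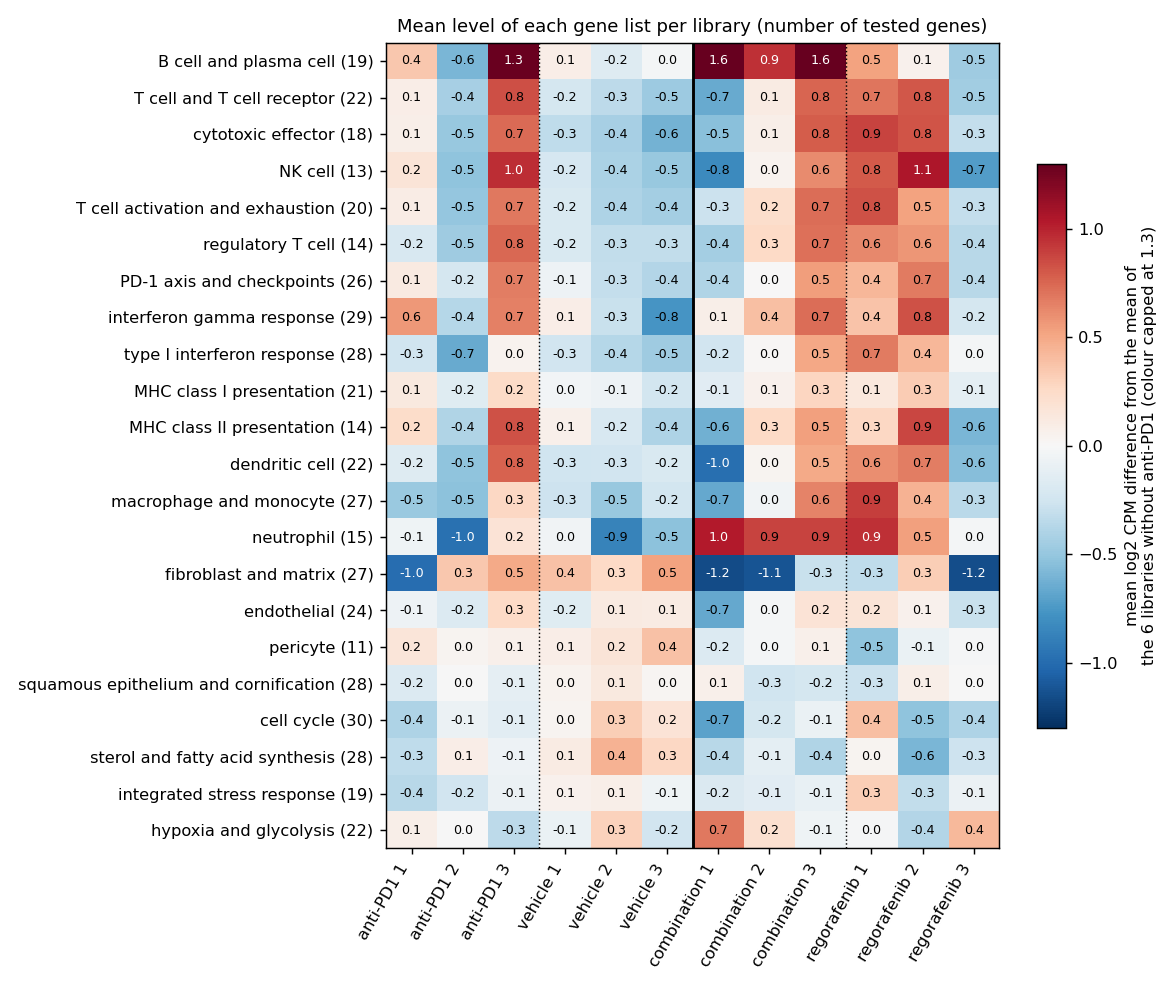
Mean log2 CPM of each gene list in each library, as the difference from the mean of the 6 libraries without anti-PD1 (colour and number, capped at 1.3 in colour), with the number of tested genes in brackets. The T cell list reaches 0.84 in anti-PD1 3 and 0.75 in combination 3 but also 0.69 and 0.80 in regorafenib 1 and 2, while the B cell and plasma cell list is highest in combination 1 (1.62).

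Antigen presentation, type I interferon and macrophage lists had average medians of -0.05 to 0.13 and medians of opposite sign in the 2 backgrounds. In anti-PD1 against vehicle 20 of 21 MHC class I, 14 of 14 MHC class II, 22 of 28 type I interferon and 17 of 27 macrophage and monocyte genes were positive. In combination against regorafenib 5, 2, 2 and 4 of them were. Of 21 tested MHC class I genes 16 were positive with a median of 0.05, and the peptide transporter gene Tap1 had 0.23 ± 0.13. Of 14 MHC class II genes 12 were positive with a median of 0.13, and Ciita, their activator, had 0.57 ± 0.31. The type I interferon list had 10 of 28 positive with a median of -0.05, with -0.66 for Oasl1 and -0.43 for the antiviral gene Rsad2. Without regorafenib 1, Oasl1 had -0.31 and Rsad2 -0.19. Macrophage and monocyte genes were positive in 9 of 27 cases with a median of -0.03, among them the scavenger receptor gene Cd163 (-1.33 ± 0.74) and the folate receptor gene Folr2 (-1.17 ± 0.77). Without regorafenib 1, Cd163 had -0.67 and Folr2 -0.21. The neutrophil list had 12 of 15 positive with a median of 0.36, but 8 of 15 and a median of 0.00159 without anti-PD1 3.

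Lcn2, which encodes an iron-scavenging protein of neutrophils and inflamed epithelium, had 27.2, 10.9 and 36.2 CPM in anti-PD1 tumours against 14.2, 5.46 and 7.79 CPM in vehicle tumours. It had 87.1, 67.1 and 28.8 CPM in combination tumours against 19.0, 43.7 and 40.0 CPM in regorafenib tumours. The groups overlapped in both backgrounds, and the log2 fold change was 1.14 ± 0.38 (SE, unadjusted p 0.013, adjusted p 0.558 by edgeR). Il1b, an inflammatory cytokine gene, had 0.36 ± 0.17, and Ltf, lactoferrin, had 1.89 ± 0.95. Il1b had 0.16 without anti-PD1 3, and Ltf had 0.26 without anti-PD1 1.

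Proliferation, matrix and sterol genes had negative averages. All 30 cell cycle genes were negative in the average effect, with a median of -0.30, against 0.01 for all tested genes, and 2 had an unadjusted p under 0.05 (background 3.25% lower). The medians were -0.37 without regorafenib and -0.22 with it. Ccne2, a cyclin of S phase entry, had 13.1, 14.3 and 15.2 CPM in anti-PD1 tumours against 17.1, 21.9 and 20.1 CPM in vehicle tumours. It had 13.4, 13.9 and 17.0 CPM in combination tumours against 22.1, 13.8 and 14.8 CPM in regorafenib tumours. Groups were apart without regorafenib and overlapped with it, and the log2 fold change was -0.33 ± 0.13 (SE, unadjusted p 0.0253). Pcna, of DNA replication, had -0.26 ± 0.12 and the mitotic cyclin gene Ccnb2 -0.43 ± 0.24. Cdkn2b (-0.66 ± 0.29), the other member with an unadjusted p under 0.05, encodes an inhibitor of the cell cycle. Regorafenib 1 weighed on this list, since 4 of 30 genes were positive without it and the median was -0.08. Without it Ccne2 had -0.21, Pcna -0.15 and Ccnb2 -0.20. The same library had the lowest mean level of skeletal muscle genes (a difference of -4.33 on the log2 scale from the mean of the libraries without anti-PD1), and the part of this in the result was not tested.

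Of 27 fibroblast and matrix genes 1 was positive, and the median was -0.42, with -0.30 without regorafenib and -0.60 with it. Postn, which encodes the matrix protein periostin, had 662, 1190.8 and 1053 CPM in anti-PD1 tumours against 1146, 1186.5 and 1096 CPM in vehicle tumours. It had 608, 663 and 692 CPM in combination tumours against 945, 1365 and 689 CPM in regorafenib tumours. The groups overlapped in both backgrounds, and the log2 fold change was -0.42 ± 0.17 (SE, unadjusted p 0.0340, adjusted p 0.558 by edgeR). Cthrc1, a secreted regulator of collagen, had -1.01 ± 0.58, Tgfb3, a TGF-beta ligand, -0.23 ± 0.12, and Acta2, of contractile myofibroblasts, -0.25 ± 0.14. Without regorafenib 2 the median of the list was -0.23 and Cthrc1 had -0.58, and without vehicle 2 Acta2 had -0.12. The mean level of the list was lowest in anti-PD1 1, combination 1 and 2 and regorafenib 3 (differences of -0.99, -1.17, -1.12 and -1.16), so 3 libraries with and 1 without the antibody were low. The mesenchymal factor Twist1 had -0.27 ± 0.14, and 12 of 13 genes of its list were negative. Twist1 had -0.18 without anti-PD1 1, and the median of its list was -0.0654 without regorafenib 2, against -0.17 in all libraries.

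Sterol and fatty acid synthesis genes were negative in 23 of 28 cases with a median of -0.19. Without regorafenib the median was -0.39 and with it -0.07. Sqle, the squalene epoxidase gene, had 26.0, 35.8 and 34.4 CPM in anti-PD1 tumours against 50.3, 86.7 and 55.7 CPM in vehicle tumours. It had 29.6, 37.2 and 27.0 CPM in combination tumours against 49.7, 19.8 and 34.7 CPM in regorafenib tumours. The anti-PD1 and vehicle groups did not overlap, the other pair did, and the average log2 fold change was -0.58 ± 0.22 (SE, unadjusted p 0.0233, adjusted p 0.558 by edgeR). Sc5d (-0.22 ± 0.07), Cyp51 (-0.42 ± 0.18) and Hsd17b7 (-0.40 ± 0.18) act in the same pathway, and Cyp51 had -0.26 without regorafenib 1. The serine synthesis genes Phgdh (-0.24 ± 0.10) and Psat1 (-0.32 ± 0.14) belong to a stress response list with 14 of 19 negative.

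Epithelial genes were mixed, with 13 of 28 positive. Klk10, a secreted protease gene, had 0.61 ± 0.23, whereas Krt10, a keratin of differentiated skin, had -2.29 ± 0.95, or -0.21 without regorafenib 2, since that library alone had 27.1 CPM and the other 11 libraries 0.297 to 0.797 CPM. The chemokine gene Cx3cl1 had 0.34 ± 0.13 and an unadjusted p of 0.0242, and 9 of 28 chemokine genes were positive.

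The 2 backgrounds were then set side by side; they share no library. Anti-PD1 against vehicle had 0 genes past the threshold by edgeR (0%), 878 at an unadjusted p under 0.05 (5.17%, with 3.31% higher and 1.87% lower) and 5 called by DESeq2. Combination against regorafenib also had 0 (0%), with 925 unadjusted (5.45%, with 3.88% higher and 1.57% lower) and 4 by DESeq2. Across the 16974 genes the log2 fold changes of the backgrounds had a Pearson's r of 0.21, as a description, since genes are not independent replicates. They had the same sign for 61.6% of genes. Of the 878 genes of small p without regorafenib, 72.4% had the same sign with it, and 6.72% also had an unadjusted p under 0.05 in that direction. Of the 925 genes with regorafenib, 70.9% and 6.38% did so without it. Groups did not overlap in both backgrounds and in the same direction for 179 genes (1.05%, with 0.619% higher and 0.436% lower), and in opposite directions for 42 (0.247%).

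Without regorafenib, Rapgef6, an activator of Rap GTPases, had 98.1, 87.4 and 86.8 CPM in anti-PD1 tumours against 70.5, 67.8 and 68.8 CPM in vehicle tumours, a log2 fold change of 0.40 ± 0.08. Itgb8, an integrin that activates TGF-beta, had 6.28, 2.99 and 2.95 CPM in anti-PD1 tumours against 1.34, 0.738 and 0.848 CPM in vehicle tumours, a log2 fold change of 2.06 ± 0.41. Both pairs of groups were apart, and DESeq2 called both, with Bbx (0.40), higher and Shox2 (-0.74) lower. Gnl3, of the nucleolus (-0.35), and Fjx1 (-0.53) had the next smallest p of the lower genes. By edgeR none of the 6 passed (smallest adjusted p 0.865).

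With regorafenib, Ces2g, a carboxylesterase gene of the intestine and liver (chr8:104961718-104969537), had 343, 330 and 276 CPM in combination tumours against 181, 220 and 228 CPM in regorafenib tumours, a log2 fold change of 0.59 ± 0.11. Without regorafenib it had 160, 159 and 155 CPM in anti-PD1 tumours against 165, 153 and 169 CPM in vehicle tumours (-0.04 ± 0.11). The Ces2g groups were apart with regorafenib and overlapped without it. Acot4, a peroxisomal thioesterase gene (1.54 ± 0.32), was the third of the higher genes beside Ces2g and Ighg3, and Rhoq, a small GTPase gene (-0.39), Wee1, a kinase that holds back mitosis (-0.40), and Dapk2, a death-associated kinase gene (-0.73), were the lower ones. By edgeR none passed (smallest adjusted p 0.402), and DESeq2 called Ighg3 and Ces2g higher among these 6.

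The difference between the backgrounds was tested as an interaction, and 0 genes passed by edgeR (0%, smallest adjusted p 1.00), 449 had an unadjusted p under 0.05 (2.65%, with 1.53% higher and 1.12% lower) and DESeq2 called 0. The difference was positive for 49.1% of genes. Ces2e, a relative of Ces2g with which it may share reads, had the smallest p of the higher genes. It had 35.7, 44.0 and 38.5 CPM in anti-PD1 tumours against 55.0, 48.2 and 54.6 CPM in vehicle tumours, and 75.3, 82.1 and 80.3 CPM in combination tumours against 60.6, 43.5 and 64.8 CPM in regorafenib tumours. The log2 fold changes of -0.42 and 0.49 cancel to an average of 0.04 ± 0.10, and their difference was 0.91. On the other side, Rnase1, a secreted ribonuclease gene, had log2 fold changes of 1.68 without and -0.78 with regorafenib, a difference of -2.46 (unadjusted p 0.00152). The other genes named by the rule were Rnf125 (difference -1.15) and Fbxo33 (-0.56), both of ubiquitin ligases, and also Ces2g (0.63), and Sox10, which had at most 0.487 CPM in any library.

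**Figure D5:**
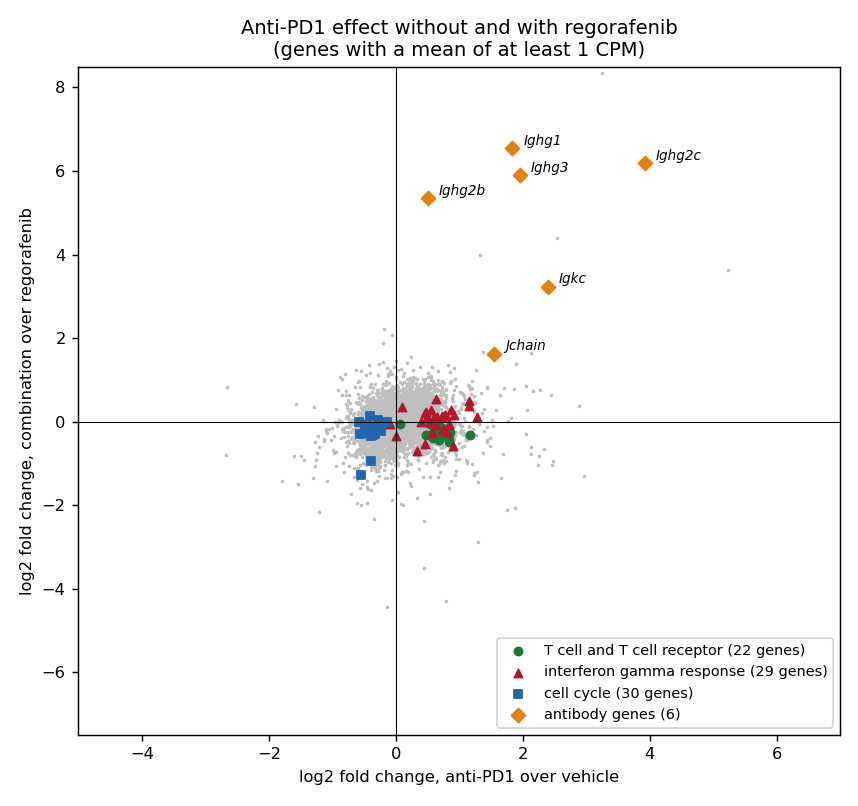
Log2 fold change of combination over regorafenib (y axis) against anti-PD1 over vehicle (x axis) for 14213 genes with a mean of at least 1 CPM. Antibody genes lie in the upper right, T cell genes other than Bcl11b lie right of 0 and below it (list median 0.67 and -0.29), and cell cycle genes lie mostly in the lower left (median -0.37 and -0.22).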

How the data were processed

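Polyadenylated RNA of 12 tumours was sequenced from stranded libraries, per the labels' protocols. The authors deposited 1 table of whole-number read counts per gene, not normalised. Reads were trimmed with cutadapt 2.4 and aligned with STAR 2.7.2a to GRCm38, per the submitters' processing notes. The counting tool, strand setting and annotation are not given in the sources used here, so reads of a gene and of an overlapping antisense gene (as for Lpp, Parp4 and Ino80d) may not be separated. Identifiers were named with GENCODE M21 (55227 of 55487 matched).

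Genes were filtered with filterByExpr (minimum count 10, minimum total 15) and scaled with TMM. edgeR 4.0.16 (R 4.3.3, limma 3.58.1) fitted 4 group means over all 12 libraries, with robust quasi-likelihood F tests and 8 residual degrees of freedom. P-values were adjusted by Benjamini-Hochberg over 16974 genes in each of 4 comparisons, with a threshold of 0.05. The script was tested on simulated data. SE is the log2 fold change divided by the root of F. List scores use log2 CPM with a prior count of 2. Lists were described by counts and medians and not tested.

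By rule, the text names the 12 genes of smallest p per direction (mean of at least 1 CPM), up to 4 per list, 18 panel genes and 3 per direction in each background and in their difference. Predicted genes, clones and receptor variable segments were counted, not named. A few results that the rule takes are not reported here. The members and lists were chosen with earlier results of these data known. Alternatives were DESeq2 1.42.0, RLE scaling, no filter, a replicate block, a Y-linked covariate, no robust estimation, an additive model, protein-coding genes, and leaving out each library.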

Additional observations from a re-analysis of the deposited data

Results flagged for a closer look

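The mean level of the 11 pericyte genes, which mark the cells that wrap small vessels, had differences of opposite sign in the 2 backgrounds. In anti-PD1 tumours it was 0.1617, 0.04039 and 0.06468 against 0.08299, 0.164 and 0.3772 in vehicle tumours, as log2 differences from the mean of the libraries without anti-PD1. In combination tumours it was -0.1742, -0.02528 and 0.06781 against -0.5182, -0.08652 and -0.01939 in regorafenib tumours. Each anti-PD1 library lay below the vehicle mean (mean difference -0.119) and each combination library above the regorafenib mean (0.164). The effects differed by 0.283, and this difference was not tested. Regorafenib 1 alone had a value under -0.5. Single libraries of the compared groups overlapped in both backgrounds. Opposite signs were not particular to this list. The same mean differences were 0.577 and -0.431 for the NK cell list and 0.511 and -0.279 for the T cell list.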

How the results depend on the processing

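By edgeR the average effect, both backgrounds and their difference had 0 genes past the threshold under each edgeR alternative run and with each library left out. The additive model and the restriction to protein-coding genes were run for the average effect alone. DESeq2 called 11 genes in the average effect, 5 in anti-PD1 against vehicle and 4 in combination against regorafenib. Of the 104 gene results recomputed, 15 passed under DESeq2 and 0 passed under the other alternatives. At an unadjusted p under 0.05, the average effect had 855 genes without anti-PD1 1 and 2539 without regorafenib 3. Most same-numbered samples did not resemble each other: 2 of 18 same-numbered pairs correlated above 0.1 (range -0.751 to 0.720). Of 12 libraries, 0 had their highest mean correlation with the libraries of their own number. Anti-PD1 3 and combination 3, however, were each other's closest single library, with the r of 0.720. Such correlations cannot exclude samples that were linked or handled together, since other differences between tumours enter them too. With the replicate number as a block the edgeR count was 0, with 953 genes at an unadjusted p under 0.05. With that block the log2 fold changes of Cd4, Havcr2 and Arg1 changed sign (-0.0564, -0.0427 and 0.0809), as did Arg1 with the Y-linked covariate (0.0376). With single libraries left out, the sign also changed for Cd8a (-0.00245 to 0.40), Cd4 (-0.24 to 0.32), Gzmb (-0.21 to 0.26), Cxcl10 (-0.42 to 0.0256), Lag3 (-0.10 to 0.42), Havcr2 (-0.20 to 0.17), Arg1 (-0.48 to 0.74), Mki67 (-0.19 to 0.12) and Cd3g (-0.0178 to 0.45). Their cause was not tested. Ighg2c stayed between 3.98 and 5.55, and its smallest adjusted p, without anti-PD1 2, was 0.111. Precision was limited by 3 libraries per group and, for Ighg3 and Sox10, by counts near 0.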
